A study of Mus musculus with 12 samples.

Results

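The effect of H-RasV12 on each transcript was compared between fibroblasts with and without KSR1. This comparison, the KSR1 by H-RasV12 interaction, was the difference of 2 differences on a log2 scale, double line minus KSR1 line, less H-RasV12 line minus GFP line. It used all 12 arrays of the series and 12422 of the 12488 probe sets of the array, leaving out the 66 control probe sets. Probe sets with a limma adjusted p under 0.05 were called interacting, and they were then sorted by which of the 4 lines stood out. A value of 1 means that the ratio of H-RasV12 to its control was 2-fold higher when KSR1 was present, and a value of 0 means that both ratios were equal.

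All lines were mouse embryonic fibroblasts of the DBA background strain with both copies of Ksr1 disrupted (KSR1 -/-), so the controls carried the same deletion, and every line expressed green fluorescent protein (GFP). The GFP line had GFP alone, the H-RasV12 line had H-RasV12 and GFP, the KSR1 line had KSR1 and GFP, and the double line had KSR1, H-RasV12 and GFP. Each condition was 1 cell line on 3 arrays. The labels do not say that the 3 arrays came from separate cultures, so p-values measure the spread between arrays, which may be technical, and a line's own history cannot be told apart from its transgene.

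KSR1, kinase suppressor of Ras 1, is a scaffold that brings Raf, MEK and ERK kinases together at the membrane when Ras is active, so that the signal from Ras to ERK is passed on efficiently. H-RasV12 is an oncogenic form of Ras that stays bound to GTP. Fibroblasts that lack KSR1 are known to be poorly transformed by oncogenic Ras. The 4 lines therefore ask how far the response of transcripts to H-RasV12 depends on the scaffold.

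Of the 2 Ksr1 probe sets, 1 was brighter in the lines labelled with KSR1. Where either lies relative to the deletion and the transgene was not analysed here. With 92765_s_at, MAS5 signals, which are array intensities on a linear scale, were 143.7, 21.11 and 37.51 in the GFP line, 20.24, 32.19 and 14.23 in the H-RasV12 line, 933.4, 1605 and 207.3 in the KSR1 line, and 301.2, 261.9 and 140.8 in the double line. The KSR1 line was above GFP by 3.22 (log2, limma adjusted p = 0.00865) and the double line above H-RasV12 by 2.47 (limma adjusted p = 0.0318), although 1 double array (140.8) lay within the range of the GFP line. The second of these calls was lost without replicate 1, 2 or 3 of the H-RasV12 line (limma adjusted p = 0.0957, 0.063 and 0.103), without replicate 1 or 2 of the double line (0.0899 and 0.104) and with replicates 2 and 3 alone (0.144) or a pseudocount of 100 (0.129). Double minus KSR1 was -1.52 (limma adjusted p = 0.205) and the interaction -0.75 ± 0.91 (SE, n = 3 arrays per line; limma adjusted p = 0.827). The other probe set, 92764_at, lay between 180.2 and 366.3 on all arrays and passed no test. The H-RasV12 transgene was not analysed here.

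Array medians ran from 160.8 to 217.3. Pairs of arrays within a line correlated between 0.955 and 0.978 over all probe sets, and pairs between lines between 0.915 and 0.975. The first replicate of the GFP, KSR1 and double lines stood apart in control probe sets, with 18S signals (3' probe set) of 344.6, 394.7 and 146.4 against 515.7 to 3312 on the other 9 arrays. Some of the counts below, but not all, are therefore also given for replicates 2 and 3 alone. Of the fibroblast markers, the probe sets of Vim (at most 128.4) and Thy1 (at most 55.77) were dim on every array, while Col1a1, Col1a2, Fn1 and S100a4 were bright in the GFP line. The summed signal of the 11 fibroblast markers was 48423 to 63631 in the GFP line, 48970 to 68864 in the H-RasV12 line, 37726 to 38820 in the KSR1 line and 19903 to 31296 in the double line. Col1a1, the main fibrillar collagen chain of fibroblasts, contributed most to that range, at 14039 to 21962 in the GFP line and 177.9 to 4299 in the double line. Of the 11, 0 had a called positive and 2 a called negative interaction, against 2.44% and 1.94% of all genes. The 2 were Lum (-2.55) and Dcn (-2.07), and leaving out 1 array at a time gave 1 to 3 calls.

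Interactions were called for 439 probe sets, 3.53% of those tested, of 383 named genes. In 242 (1.95%) H-RasV12 raised the transcript more, or lowered it less, with KSR1 than without it, and in 197 (1.59%) the reverse was found. Without KSR1, H-RasV12 changed only 8 probe sets (0.0644%) against GFP, while with KSR1 it changed 948 (7.63%). The 8 became 17 and 15 without replicate 1 of the GFP or of the H-RasV12 line, 40 with replicates 2 and 3 alone, 4 without replicate 2 of the double line and 3 without any other single array. The median SE was 0.37 for the interaction, 0.26 for H-RasV12 minus GFP. Called interactions were between 0.72 and 6.74 in size, with a median of 1.86, and 97 were at or above 2 and 98 at or below -2. At an unadjusted p under 0.05 there were 1780 of the 12422 probe sets, and at an adjusted p under 0.01 there were 169. Centring each array on its median kept the number, 441, but moved the median of all probe sets from -0.09 to 0.08 and the split to 294 higher and 147 lower. Direction counts are therefore read against that shift.

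The count depended on single arrays. It fell to 252 without replicate 2 of the H-RasV12 line, 287 without its replicate 3, 277 without replicate 2 of the KSR1 line and 288 without replicate 3 of the GFP line. Replicates 2 and 3 alone gave 480, of which 300 were among the 439, all with the same sign. In each of the 21 other fits, every called probe set that was also among the 439 kept its sign. Those fits reuse the same arrays, so this was largely fixed in advance and is no further support. All 439 also had the same sign when differences were taken on the linear signal scale. Of 122 called genes with several probe sets, 27 had at least 2 called, and in 0 of them did the signs differ. Of the 124 probe sets of these genes that were not called, 91 had the same sign as the called one. Among the genes described below, Aqp1, Lpl, Ereg, Nes, Pag1 and Cldn3 each had 1 such uncalled probe set of the same sign.

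Of the 439 called interactions, 348 belonged to 1 line standing apart from the other 3. A line was taken to stand apart when the gap between its mean and the nearest other mean exceeded the range of the other 3. The double line was high in 142 (32.3%) and low in 69 (15.7%), and the KSR1 line was high in 70 (15.9%) and low in 58 (13.2%). The H-RasV12 line was high in 5 and low in 0, and the GFP line was high in 3 and low in 1. Another 37 set GFP and double against H-RasV12 and KSR1, 5 set the 2 KSR1-expressing lines against the others, and 49 had no such line or pair. The sort is a description of the tested values and carries no test, and the sign of the interaction follows from it by arithmetic, since a transcript high in the double line alone has a positive interaction and one high in the KSR1 line alone a negative one. Over all probe sets, called or not, the double or KSR1 line stood apart in 38%, against 77.2% of those called. By sort, the shares of all probe sets were 8.59% for double high, 9.94% for double low, 13.7% for KSR1 high and 5.77% for KSR1 low. The KSR1 high share of those called, 15.9%, was thus near its share of all probe sets.

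**Figure D1:**
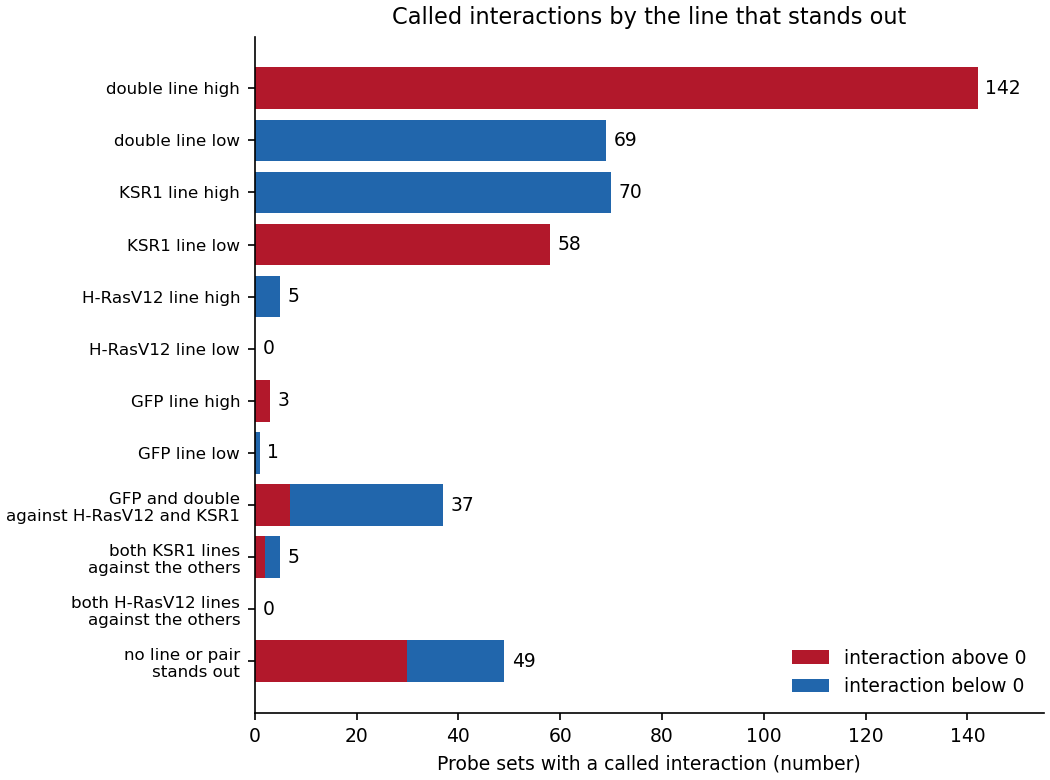
Number of called interactions (horizontal axis) by the line or pair of lines that stood apart (vertical axis), coloured by the sign of the interaction. The double line accounts for 142 and 69 and the KSR1 line for 70 and 58, while the H-RasV12 and GFP lines together account for 9.

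The sort fixes the shape of the following medians, which are given as a description of size and as no further support. Where the double line was high, the median H-RasV12 difference was -0.14 (log2) without KSR1 and 1.71 with KSR1. Where the double line was low, the medians were 0.19 and -1.80. Where the KSR1 line was high, they were 0.26 and -1.97, and where it was low, -0.21 and 1.65. In these last 2 sorts the KSR1 line differed from GFP by a median of 2.08 and -1.52, and the double line from GFP by -0.03 and 0.16. By the sort rule the double line lies closer to the other lines than to the KSR1 line in these.

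**Figure D2:**
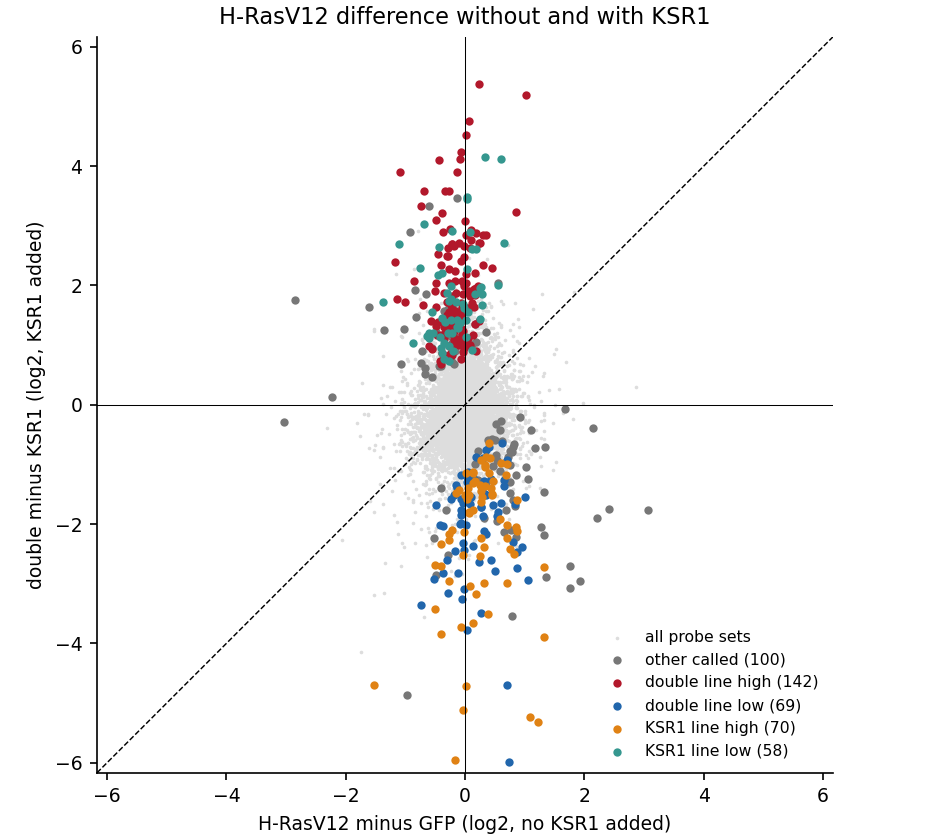
Log2 difference H-RasV12 minus GFP (horizontal axis, without KSR1) against double minus KSR1 (vertical axis, with KSR1), grey dots for all probe sets and coloured dots for called interactions by sort, with a dashed line where both are equal. Called probe sets spread vertically near 0 on the horizontal axis, with 8 probe sets called for the horizontal difference and 948 for the vertical one.

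The sizes of the sorts moved with single arrays. Double high was the largest of the 4 under every alternative, while the order of the other 3 changed with the array left out. Double high was 88 without replicate 2 of the H-RasV12 line. Double low was 45 without replicate 2 of the GFP line, 42 without replicate 2 of the H-RasV12 line, 43 without replicate 2 of the KSR1 line and 121 without replicate 1 of the double line. KSR1 high was 42 without replicate 3 of the GFP line, 41 and 44 without replicates 2 and 3 of the H-RasV12 line, and 46 without replicate 2 of the KSR1 line. KSR1 low was 38 without replicate 3 of the GFP line, 30 and 33 without replicates 2 and 3 of the H-RasV12 line, 34 without replicate 2 of the KSR1 line and 37 without replicate 2 of the double line. Replicates 2 and 3 alone gave 138 double high, 79 double low, 51 KSR1 high and 45 KSR1 low. Requiring instead that a line differ from each of the other 3 by limma gave 134, 65, 60 and 45.

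Among the transcripts high in the double line, Chchd10, which encodes a small protein of the mitochondrial intermembrane space, had the highest interaction of any probe set with 1 gene symbol. Its signal was 161.5, 254.6 and 277.2 in the GFP line, 190.3, 305.8 and 336.9 in the H-RasV12 line, 328, 98.01 and 318.8 in the KSR1 line, and 9179, 9735 and 11384 in the double line. All 3 double arrays lay above the other 9, which overlapped each other. The interaction was 5.13 ± 0.51 (SE, n = 3 per line; limma adjusted p = 0.000226). Cd68, a glycoprotein of late endosomes and lysosomes, was at 199.9, 197.3 and 132.5 in the GFP line, 153.8, 201.4 and 176.3 with H-RasV12, 162.2, 146.3 and 142 with KSR1, and 3559, 5184 and 3293 with both. Its interaction was 4.50 ± 0.31 (limma adjusted p = 9.95e-06), with H-RasV12 differences of 0.02 without and 4.52 with KSR1. A second Cd68 probe set did not show this, with an interaction of -0.49 ± 0.33 (limma adjusted p = 0.604).

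CD68 also marks macrophages, so the leukocyte markers are given beside it. Of the 13, 0 had an interaction called by limma. An unadjusted p under 0.05 was found for 2, both negative, against 1780 of all 12422 probe sets. Summed signals of the 13 were 1679 to 2846, 1719 to 2128, 2399 to 4827 and 2055 to 2363 in the GFP, H-RasV12, KSR1 and double lines. Ptprc (CD45) reached at most 27.35, Adgre1 at most 27.75 and Lyz2 at most 17.41 on any array. Cd14 was bright in every line, at 1004 to 3024 over the 12 arrays, and Csf1r reached 567.4, Laptm5 377.3 and Fcgr1 323.2. The part of other cells in the Cd68 value was not tested.

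Lysosomal genes were among the double high transcripts. Of 27 lysosomal membrane and vacuolar ATPase genes measured, 8 had a called positive and 0 a called negative interaction, with a median of 0.88, against 2.44% positive and 1.94% negative and a median of -0.09 over all 8251 genes. That count was 5 without replicate 2 or 3 of the GFP line, replicate 2 or 3 of the H-RasV12 line or replicate 2 of the double line, and 4 without replicate 2 of the KSR1 line. Atp6v1b2, a subunit of the proton pump that acidifies lysosomes, was at 1258, 1808 and 1657 in the GFP line, 2062, 1768 and 1641 with H-RasV12, 1128, 1185 and 1763 with KSR1, and 4074, 6269 and 6044 with both, with an interaction of 1.77 ± 0.31 (limma adjusted p = 0.0068). Among 30 lysosomal hydrolases 3 were called, all positive, with a median of 0.35, and 1 was called without replicate 2 of the GFP line, replicate 2 or 3 of the H-RasV12 line, replicate 2 or 3 of the KSR1 line or replicate 2 of the double line. Replicates 2 and 3 alone called 6, and 5 were called without replicate 1 of the H-RasV12 or of the KSR1 line. Ctsk, cathepsin K, a collagen-degrading protease, stood out with 3828, 4753 and 4303 in the double line against 56.66 to 512.4 on the other 9 arrays, and an interaction of 4.30 ± 0.74 (limma adjusted p = 0.00602). Creg1, a secreted and lysosomal glycoprotein, was at 464.1, 684.3 and 814.4 in the double line against 8.461 to 112.5 elsewhere, with an interaction of 4.54 ± 0.59 (limma adjusted p = 0.00128).

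Several mitochondrial enzymes had called positive interactions too. In oxidative phosphorylation, 10 of 55 measured genes had a called interaction, all positive, against 2.44% called positive over all genes. Of the 55 values, 51 were above 0 and the median was 0.83. At an unadjusted p under 0.05 there were 32 of the 55, all positive, against 1780 of all 12422 probe sets. The 1780 cover both directions and every probe set, while the list has 1 per gene, so the shares are only roughly comparable. Without replicate 2 of the H-RasV12 line 6 were called. Ndufs3, a core subunit of complex I, was at 1854, 2070 and 1795 in the GFP line, 1649, 1596 and 1713 with H-RasV12, 1363, 1117 and 1129 with KSR1, and 3587, 2993 and 2604 with both. The double arrays were above all others and the KSR1 arrays below all others, and the interaction was 1.53 ± 0.21 (limma adjusted p = 0.00185). Cox7a1, a subunit of cytochrome oxidase found mainly in heart and muscle, was dim in 3 lines, at most 29.29, and reached 245, 227.3 and 130.9 in the double line (interaction 2.25 ± 0.34, limma adjusted p = 0.00288).

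In fatty acid oxidation 7 of 19 genes were called positive and 0 negative, against 2.44% and 1.94% of all genes. The median of the list was 0.94. The count was 3 or 4 without any 1 of replicates 1 and 3 of the GFP line, 2 and 3 of the H-RasV12 line, 2 and 3 of the KSR1 line, and 2 and 3 of the double line. Hadhb, the beta subunit of the trifunctional protein of beta-oxidation, had 2786, 3561 and 3287 in the double line and 852 to 1487 on the other arrays, with an interaction of 1.76 ± 0.24 (limma adjusted p = 0.00146). Decr1, a reductase needed to oxidise unsaturated fatty acids, followed another course, since its 3 KSR1 arrays were low (257.7, 150.1 and 158.9) and the double arrays (558.6, 522.5 and 467.1) lay within the range of the GFP and H-RasV12 arrays (395.6 to 747.5). Its interaction was 1.72 ± 0.32 (limma adjusted p = 0.0106). In pyruvate dehydrogenase and the citric acid cycle 3 of 19 were called, all positive, with a median of 0.79, and 7 without replicate 1 of the double line. Pdhb, a subunit of pyruvate dehydrogenase, was at 3050, 4223 and 5004 in the double line and 1160 to 1619 elsewhere (interaction 1.62 ± 0.27, limma adjusted p = 0.00528).

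Glycolytic and hypoxia response genes had called interactions in the same direction. Over all genes, 2.44% were called positive and 1.94% negative, with a median of -0.09. In glycolysis 5 of 18 were called positive and 0 negative, with a median of 0.90, and 3 were called without replicate 2 or 3 of the GFP line, replicate 2 or 3 of the H-RasV12 line or replicate 3 of the KSR1 line. Pfkp, the platelet form of phosphofructokinase, was at 2428, 3667 and 3687 in the double line and 344.6 to 516.6 on the other 9 arrays, which gave an interaction of 2.69 ± 0.27 (limma adjusted p = 0.000254). Eno2, an enolase, was at 2474, 1971 and 1530 in the double line and 281.1 to 717.3 elsewhere (interaction 2.51 ± 0.45, limma adjusted p = 0.0075). In the hypoxia response list 8 of 12 were called positive and 0 negative, with the highest median of the lists, 1.64. It was 5 without replicate 2 or 3 of the GFP line, 4 without replicate 2 of the H-RasV12 line, replicate 2 of the KSR1 line or replicate 3 of the double line, and 3 without replicate 1 of the GFP line, replicate 1 or 3 of the H-RasV12 line, replicate 3 of the KSR1 line or replicate 2 of the double line. Adm, a vasodilator peptide induced by low oxygen, was at 53.27, 167.1 and 185.2 in the GFP line, 230.6, 85.65 and 104.2 with H-RasV12, 93.03, 33.29 and 23.05 with KSR1, and 1261, 3312 and 1337 with both (interaction 4.68 ± 0.72, limma adjusted p = 0.00351). Ndrg1, a stress and hypoxia-regulated gene, was at 4266, 10514 and 5710 in the double line against 645.5 to 1647 elsewhere (interaction 2.49 ± 0.44, limma adjusted p = 0.00723).

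Of 22 genes of adipocyte regulation and lipid storage, 3 were called positive and 1 negative, against 2.44% and 1.94% of all genes. The median of the list was -0.05. Plin2, which coats lipid droplets, was at 1948, 1405 and 1542 in the GFP line, 2244, 2446 and 1985 with H-RasV12, 4111, 2748 and 3750 with KSR1, and 15576, 18016 and 18482 with both. It rose stepwise, by 1.10 with KSR1 alone (limma adjusted p = 0.00291) and by 2.30 when H-RasV12 was added to KSR1 (limma adjusted p = 1.20e-05). The interaction was 1.85 ± 0.26 (limma adjusted p = 0.00196). Lpl, lipoprotein lipase, was at 212.9, 773.9 and 1201 in the double line and at most 126.5 elsewhere (interaction 4.99 ± 0.74, limma adjusted p = 0.0028). The total of 4 called in the list was 2 without replicate 2 or 3 of the GFP line, any replicate of the H-RasV12 line, replicate 2 of the KSR1 line or replicate 3 of the double line.

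The transcripts low in the double line were led by Aqp1, a water channel. It was at 933.3, 959.5 and 428.8 in the GFP line, 742.3, 1932 and 1312 with H-RasV12, 2386, 2479 and 1976 with KSR1, and 13.17, 16.24 and 9.871 with both. It was highest with KSR1 alone, and with H-RasV12 added the 3 double arrays fell below every other array. The interaction was -6.74 ± 0.48 (limma adjusted p = 1.09e-05). Cd34, a surface sialomucin of progenitor and stromal cells, was steady at 1916 to 3030 in 3 lines and at 383.5, 112.8 and 82.5 in the double line (interaction -3.80 ± 0.54, limma adjusted p = 0.00193). Igfbp4, which binds insulin-like growth factors, was at 609.4 to 3443 in 3 lines and 327.3, 45.28 and 31.46 in the double line (interaction -5.38 ± 0.85, limma adjusted p = 0.00365), where the first replicate stood well above the other 2. Of the 3 Igfbp4 probe sets 2 were called, with the same sign but sorted differently. Prrx2, a homeobox factor of mesenchyme, was at 523.6, 313.1 and 311.1 in the double line against 2337 to 6536 elsewhere (interaction -2.70 ± 0.31, limma adjusted p = 0.000551). It was 1 of 4 called among 39 Hox, T-box and limb identity genes, all negative, with a median of -0.42. Of all genes, 1.94% were called negative, and their median was -0.09.

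Some imprinted genes and adhesion receptors were low in the double line too. Sgce, which encodes epsilon-sarcoglycan, was at 17.64, 32.09 and 37.61 in the double line against 188.3 to 567 (interaction -2.61 ± 0.47, limma adjusted p = 0.00767), and Slc38a4, an amino acid transporter, at 327, 353.7 and 137.4 against 690.6 to 1199 (interaction -2.40 ± 0.39, limma adjusted p = 0.00405). Over the 20 imprinted genes measured, 2 were called positive and 3 negative, against 2.44% and 1.94% of all genes. That total of 5 was 3 without replicate 2 or 3 of the GFP line, replicate 1 or 2 of the H-RasV12 line, replicate 3 of the KSR1 line or replicate 2 of the double line, and 2 without replicate 3 of the H-RasV12 line, replicate 1 of the KSR1 line or replicate 3 of the double line. Of 29 adhesion receptors, 5 had a called negative interaction and 1 a positive one, against 1.94% and 2.44% of all genes. Their median was -0.51. Their total of 6 was 3 without replicate 2 or 3 of the H-RasV12 line or replicate 2 of the KSR1 line. Alcam, a cell adhesion molecule of the immunoglobulin family, was at 40.9, 32.87 and 23.91 in the double line against 120.4 to 396.3 (interaction -3.34 ± 0.41, limma adjusted p = 0.000758).

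**Figure D3:**
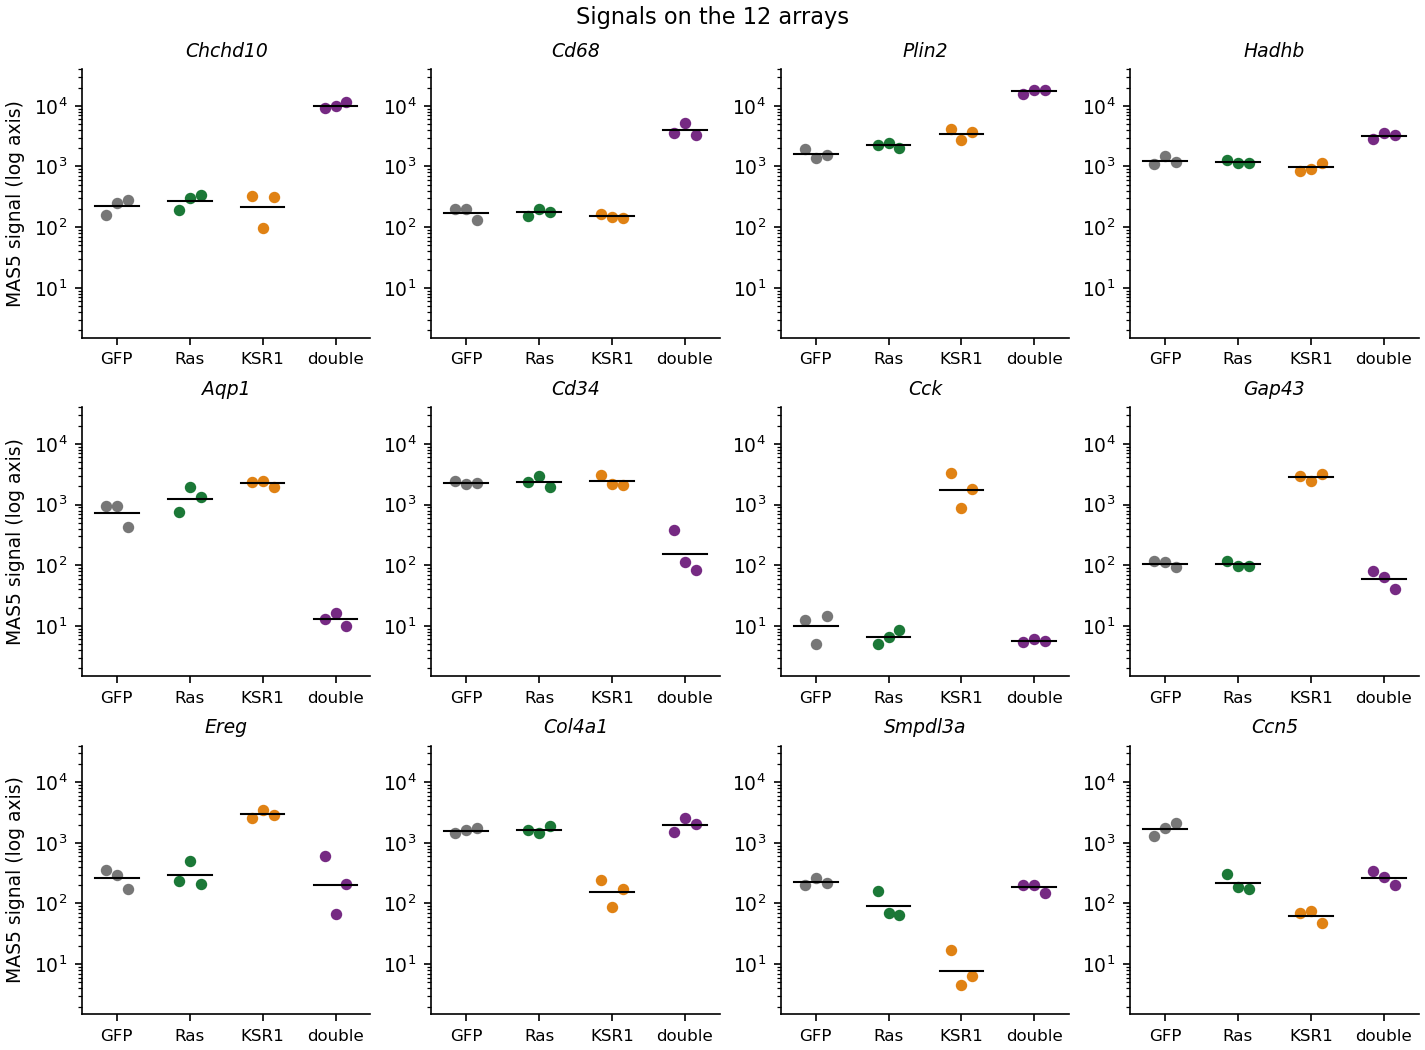
MAS5 signal (vertical axis, log scale) on each of the 3 arrays of the 4 lines for 12 genes, with a bar at the geometric mean of each line. In the top row the double line is high, in Aqp1 and Cd34 it is low, in Cck, Gap43 and Ereg the KSR1 line is high, in Col4a1 and Smpdl3a it is low, and in Ccn5 the GFP line is high.

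A further group was bright in the KSR1 line and not in the double line. Cck, the precursor of the peptide hormone cholecystokinin, was at 12.64, 5.092 and 14.73 in the GFP line, 5.029, 6.594 and 8.686 with H-RasV12, 3376, 893 and 1813 with KSR1, and 5.418, 6.083 and 5.595 with both. Only the 3 KSR1 arrays were above 15, and the interaction was -5.79 ± 0.54 (limma adjusted p = 0.000131). Gap43, a growth cone protein of neurons, was at 116.5, 111.3 and 92.33 in the GFP line, 117.1, 96.53 and 98.81 with H-RasV12, 2986, 2475 and 3166 with KSR1, and 79.58, 64.1 and 40.61 with both (interaction -5.09 ± 0.33, limma adjusted p = 9.18e-06). Uchl1, a neuronal ubiquitin hydrolase, was at 1596, 1267 and 1350 with KSR1, 121.6 to 218.5 in the GFP line and 40.85, 35.56 and 20.05 with both (interaction -4.72 ± 0.38, limma adjusted p = 3.72e-05). Nes, the intermediate filament nestin, was at 1754, 2311 and 1848 with KSR1 and 215.9 to 460 elsewhere (interaction -2.78 ± 0.42, limma adjusted p = 0.0028).

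Gap43, Uchl1 and Nes are neural markers, and 4 of the 6 such markers had a called negative interaction, against 1.94% of all genes. The fourth was Map2, a microtubule-associated protein of neurons, which was not high in the KSR1 line (90.31 to 113.5, against 139.7 to 236.8 with H-RasV12) and was low in the double line (4.801 to 22.69, against 45.54 to 198.7 in the GFP line). It was named after its values were seen. The summed signal of the 6 markers was 2817 to 4690 in the GFP line, 3480 to 4891 in the H-RasV12 line, 9374 to 11201 in the KSR1 line and 2969 to 4181 in the double line. Syp, a synaptic vesicle protein, was at 3.665 to 190.1 and Tubb3, neuronal tubulin, at 2197 to 5028 over the 12 arrays. Whether other cells had a part in these values was not tested.

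The promoters of 303 of the 383 genes with a called interaction were held in the RefSeq table (GRCm38.p6; 250 bases before to 50 after the start, the most upstream start of each gene). They were searched on both strands for AP-1 (TGANTCA), the E-box (CACGTG), the estrogen-related receptor motif (AAGGTCA) and the ETS motif (CCGGAAG); overlapping matches were each counted. AP-1 was in 5.94% of them against 7.92% of all 27025 promoters in the table and 6.06% of those of all genes on the array. The E-box was in 9.9% against 7.24% and 9.92%, the estrogen-related receptor motif in 2.97% against 4.65% and 3.5%, and the ETS motif in 10.2% against 9.14% and 15.6%. In the 97 double high promoters the shares were 5.15% for AP-1, 8.25% for the E-box, 5.15% for the estrogen-related receptor motif and 15.5% for ETS, and in the 52 KSR1 high promoters 9.62%, 17.3%, 0% and 11.5%. The promoters of Cd68 (chr11:69666121-69666420, minus strand) and Cck (chr9:121495645-121495944, minus strand) are shown as those with the largest interaction in these 2 sorts among named genes that stayed called in every other fit that tested them and held a searched motif. Both are from GRCm38.p6 and run 5' to 3', with AP-1 in capitals in Cd68 (2 matches) and the E-box in capitals in Cck (1 match).
Cd68: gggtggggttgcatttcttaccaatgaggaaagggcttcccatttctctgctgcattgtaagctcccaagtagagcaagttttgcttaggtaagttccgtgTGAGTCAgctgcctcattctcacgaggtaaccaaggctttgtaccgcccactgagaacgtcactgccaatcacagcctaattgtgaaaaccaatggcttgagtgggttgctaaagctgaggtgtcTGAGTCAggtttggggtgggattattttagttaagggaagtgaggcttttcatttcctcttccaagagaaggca
Cck: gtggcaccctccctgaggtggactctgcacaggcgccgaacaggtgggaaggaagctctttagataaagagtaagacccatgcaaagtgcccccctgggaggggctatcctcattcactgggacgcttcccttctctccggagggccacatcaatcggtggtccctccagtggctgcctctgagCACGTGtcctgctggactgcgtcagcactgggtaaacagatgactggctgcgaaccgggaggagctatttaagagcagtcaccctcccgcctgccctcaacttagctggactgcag
The AP-1 matches of Cd68 begin 149 and 24 bases before the start and the E-box of Cck 66 bases before it. A match describes the letters and shows no binding.

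Of 21 growth factors, cytokines and chemokines measured, 5 had a called negative and 1 a positive interaction, with a median of -0.66, and 4 were sorted KSR1 high. Over all genes 2.44% were called positive and 1.94% negative. Ereg, epiregulin, a ligand of the epidermal growth factor receptor, was at 363, 292.3 and 170.3 in the GFP line, 233.8, 497 and 208.8 with H-RasV12, 2606, 3438 and 2888 with KSR1, and 606.4, 67.89 and 208.6 with both. The 3 double arrays spanned the range of the GFP and H-RasV12 arrays, and the interaction was -3.79 ± 0.77 (limma adjusted p = 0.0164). Cxcl2, a chemokine that attracts neutrophils, was at 856.1, 294.9 and 365.6 with KSR1 and at most 37.74 on the other 9 arrays (interaction -3.90 ± 0.54, limma adjusted p = 0.00173). Col18a1, a basement membrane collagen, was at 597.2, 746.3 and 617.9 with KSR1 and at most 179.4 elsewhere (interaction -4.05 ± 0.57, limma adjusted p = 0.00187). Twist2, a mesenchymal transcription factor, was at 3702, 3333 and 3395 with KSR1 and 982.5 to 2435 elsewhere (interaction -1.98 ± 0.30, limma adjusted p = 0.00286).

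The mirror case was a transcript low with KSR1 alone and back near the GFP level in the double line. Col4a1, a chain of basement membrane collagen IV, was at 1434, 1601 and 1757 in the GFP line, 1626, 1428 and 1869 with H-RasV12, 245, 87.83 and 174.5 with KSR1, and 1496, 2547 and 2043 with both. The KSR1 arrays lay below all others, and the other 3 lines overlapped. The interaction was 3.44 ± 0.40 (limma adjusted p = 0.000551). Smpdl3a, a lysosome-linked phosphodiesterase, was at 205.4, 261 and 213.7 in the GFP line, 161.8, 70.34 and 65.07 with H-RasV12, 16.86, 4.48 and 6.394 with KSR1, and 204.9, 202.9 and 150 with both (interaction 3.82 ± 0.46, limma adjusted p = 0.000655). Pag1, a membrane adaptor that recruits the kinase Csk, was at 56.52, 9.287 and 25.83 with KSR1 and 107.1 to 542.8 elsewhere (interaction 3.72 ± 0.58, limma adjusted p = 0.00351).

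Cxcl12, a chemokine of stromal cells, was graded by 1 of its probe sets. Of its 3 probe sets 2 were called, and these 2 were sorted differently. The graded one was at 2306, 2978 and 5607 in the GFP line, 2978, 1456 and 2513 with H-RasV12, 1.453, 8.226 and 8.028 with KSR1, and 304.2, 238.2 and 266.7 with both. The double line thus lay between the KSR1 line and the other 2 lines without overlap (interaction 3.94 ± 0.45, limma adjusted p = 0.00049). Over 47 genes of collagens, laminins and matrix, 6 interactions were called positive and 5 negative, against 2.44% and 1.94% of all genes. Their median was 0.02. Their total of 11 was 7 without replicate 2 of the GFP, H-RasV12 or KSR1 line or replicate 3 of the KSR1 line, and 6 without replicate 3 of the GFP or H-RasV12 line.

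The H-RasV12 or the GFP line stood apart in 9 called probe sets. This number was 17 without replicate 1 of the GFP line or of the H-RasV12 line, 13 without replicate 1 of the double line, 30 with replicates 2 and 3 alone, 6 without replicate 2 of the H-RasV12 line or replicate 2 or 3 of the double line, 5 without replicate 3 of the H-RasV12 or KSR1 line and 4 without replicate 2 of the KSR1 line. Cldn1, a tight junction protein, was at 4.446, 3.305 and 3.653 in the GFP line, 64.33, 78.88 and 47.98 with H-RasV12, 3.698, 3.056 and 3.268 with KSR1, and 2.444, 1.847 and 2.013 with both. The 3 H-RasV12 arrays were above the other 9, though dim, and H-RasV12 minus GFP was 1.68 (limma adjusted p = 0.00049) and the interaction -1.75 ± 0.21 (limma adjusted p = 0.000578). Vdr, the vitamin D receptor, was at 207.1, 188.5 and 157 in the GFP line and at most 38.05 on the other 9 arrays (interaction 2.36 ± 0.33, limma adjusted p = 0.00185). A second Vdr probe set had an interaction of -0.18 ± 0.60 (limma adjusted p = 0.958). Ccn5, a secreted matricellular protein, was at 1289, 1736 and 2142 in the GFP line, 300.7, 187.2 and 174.1 with H-RasV12, 68.7, 76.38 and 46.83 with KSR1, and 349.4, 272.3 and 200.1 with both. H-RasV12 lowered it without KSR1, by -2.85 (limma adjusted p = 0.00106), and raised it with KSR1, by 1.76 (limma adjusted p = 0.00152), and it was the 1 probe set called in opposite directions for H-RasV12. Its interaction was 4.60 ± 0.40 (limma adjusted p = 6.46e-05).

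Signals near or under the pseudocount of 23 that was added before taking logarithms set the size of some of these values. With a pseudocount of 1 or 100, the interaction was -7.52 or -4.10 for Cck, -8.12 or -5.08 for Aqp1, 5.67 or 2.13 for Smpdl3a, 6.12 or 2.39 for Cxcl12, 3.34 or 1.26 for Cox7a1, -4.22 or -0.67 for Cldn1, 3.59 or 1.26 for Vdr and 6.10 or 2.86 for Creg1, all still called.

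Seen from the other side, the interaction is also the difference between the effects of KSR1 with and without H-RasV12, and these 2 effects share no arrays. KSR1 minus GFP was called for 755 probe sets (6.08%) and double minus H-RasV12 for 976 (7.86%). Both were called for 269, of which 236 had the same direction, 31.3% of the first and 24.2% of the second, 78 up and 158 down. The other 33 had opposite directions. The interaction is the difference of these 2 effects, so effects of opposite sign add up in it. It was called in all 33, which largely follows from that and is no further support. KSR1 raised 21 of them without H-RasV12 and lowered them with it, and the reverse held for 12. With median centring these numbers became 13 and 22, so the direction of that split is not stable under scaling. The 33 became 17 without replicate 3 of the GFP line, 18 without replicate 2 of the H-RasV12 line, 14 and 18 without replicates 2 and 3 of the KSR1 line, and 53 and 18 without replicates 1 and 2 of the double line. With replicates 2 and 3 alone they became 39. KSR1 minus GFP itself was called for 429 without replicate 3 of the GFP line and 472 without replicate 2 of the KSR1 line.

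**Figure D4:**
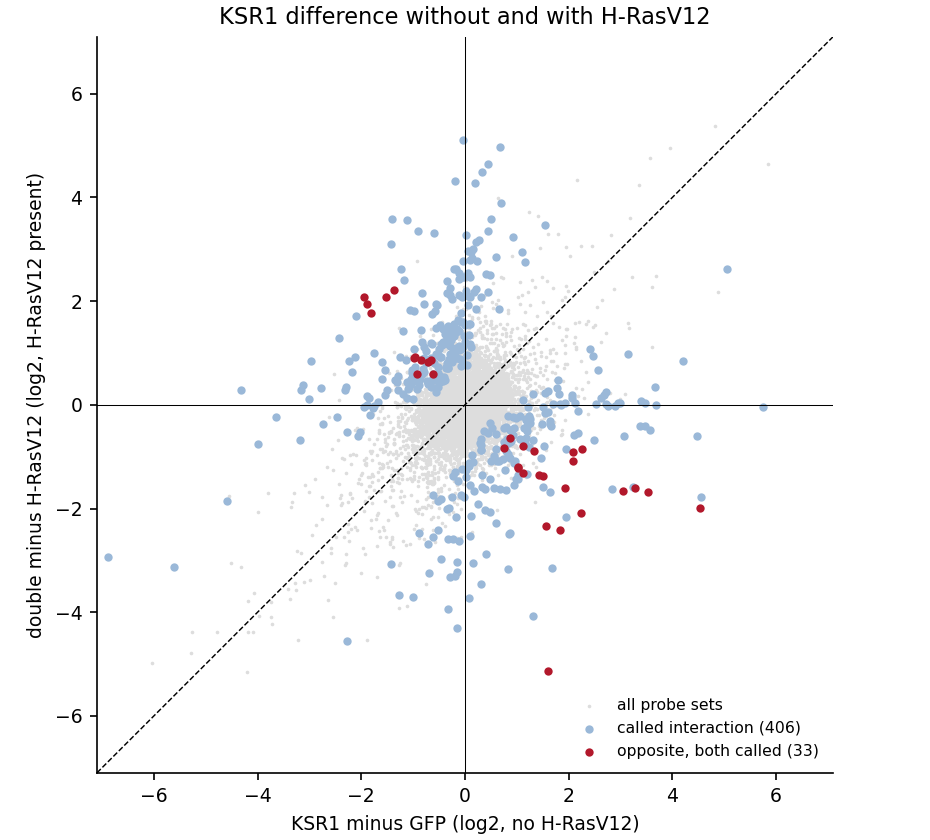
Log2 difference KSR1 minus GFP (horizontal axis, no H-RasV12) against double minus H-RasV12 (vertical axis, H-RasV12 present), grey for all probe sets, blue for called interactions and red for the 33 called in both differences with opposite signs. The red points fall in the upper left (12) and lower right (21) quadrants.

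Fst, follistatin, which binds activin, was such a gene, at 487, 690.1 and 646.3 in the GFP line, 270.1, 380.4 and 251.5 with H-RasV12, 1924, 1851 and 1693 with KSR1, and 127.3, 7.294 and 33.35 with both. KSR1 raised it by 1.56 (limma adjusted p = 0.0484) without H-RasV12, and with H-RasV12 the difference was -2.33 (limma adjusted p = 0.00381). The arrays of the 4 lines did not overlap, but the first of these calls was lost without any 1 of 10 arrays, all but replicates 1 and 2 of the double line, with limma adjusted p from 0.0575 to 0.138, and with median centring (0.0772), quantile normalization (0.062), the replicate block (0.0524), a pseudocount of 1 (0.214) or no intensity trend (0.065). Prrx1, a mesenchymal homeobox factor, was at 271.3, 560.5 and 400.3 in the GFP line, 743.8, 825 and 411.5 with H-RasV12, 1090, 1169 and 1057 with KSR1, and 261.3, 193.5 and 255.3 with both, with differences of 1.43 (limma adjusted p = 0.00733) and -1.35 (limma adjusted p = 0.00836), the first with a limma adjusted p of 0.0795 in replicates 2 and 3 alone. In the other direction, Acaa2, the thiolase of mitochondrial beta-oxidation, was at 4203, 4882 and 5434 in the GFP line, 4979, 3851 and 4620 with H-RasV12, 3459, 2120 and 2643 with KSR1, and 7795, 8611 and 7934 with both. KSR1 lowered it by -0.84 without H-RasV12 (limma adjusted p = 0.02) and raised it by 0.86 with it (limma adjusted p = 0.0135). For Acaa2 the first call was lost without replicate 2 or 3 of the GFP line (limma adjusted p = 0.0638 and 0.1) or replicate 2 or 3 of the KSR1 line (0.102 and 0.0625), and the second without replicate 2 of the H-RasV12 line (0.0695) or of the double line (0.0556).

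In 37 probe sets the H-RasV12 and KSR1 lines lay together on 1 side and the GFP and double lines on the other. That was 8.43% of those called, near the 6.06% of all probe sets sorted so. In 30 of the 37 the line means were higher with either transgene alone. Adam8, a membrane metalloprotease, was at 47.34, 25.11 and 20.44 in the GFP line, 91.97, 324.1 and 176.2 with H-RasV12, 461, 483 and 514.6 with KSR1, and 33.81, 34.63 and 61.97 with both. Every H-RasV12 and KSR1 array was above every GFP and double array (interaction -4.88 ± 0.53, limma adjusted p = 0.000375), while H-RasV12 minus GFP alone, 1.92, did not pass (limma adjusted p = 0.202). Itga6, an integrin chain that binds laminin, was at 94.6, 99.58 and 109.8 in the GFP line, 154.1, 415.3 and 372.6 with H-RasV12, 514.2, 315.5 and 578.4 with KSR1, and 161.1, 158.3 and 132.1 with both, where 1 H-RasV12 array lay within the double range (interaction -2.80 ± 0.47, limma adjusted p = 0.00521). Hmga2, a chromatin protein of embryonic and transformed cells, was at 558.5, 1975 and 519.8 in the GFP line, 1819, 3799 and 3427 with H-RasV12, 4703, 7510 and 6461 with KSR1, and 1678, 477.1 and 943.9 with both (interaction -4.47 ± 0.72, limma adjusted p = 0.00403). The KSR1 arrays were highest, while 1 GFP array (1975) was above 1 H-RasV12 array (1819). H-RasV12 minus GFP was not called for Itga6 (1.33, limma adjusted p = 0.399) or Hmga2 (1.76, limma adjusted p = 0.531) either. The count of 37 was 17 without replicate 3 of the GFP line, 14 without replicate 2 of the H-RasV12 line, 19 and 24 without replicates 2 and 3 of the KSR1 line and 18 without replicate 3 of the double line, and 72 with replicates 2 and 3 alone.

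**Figure D5:**
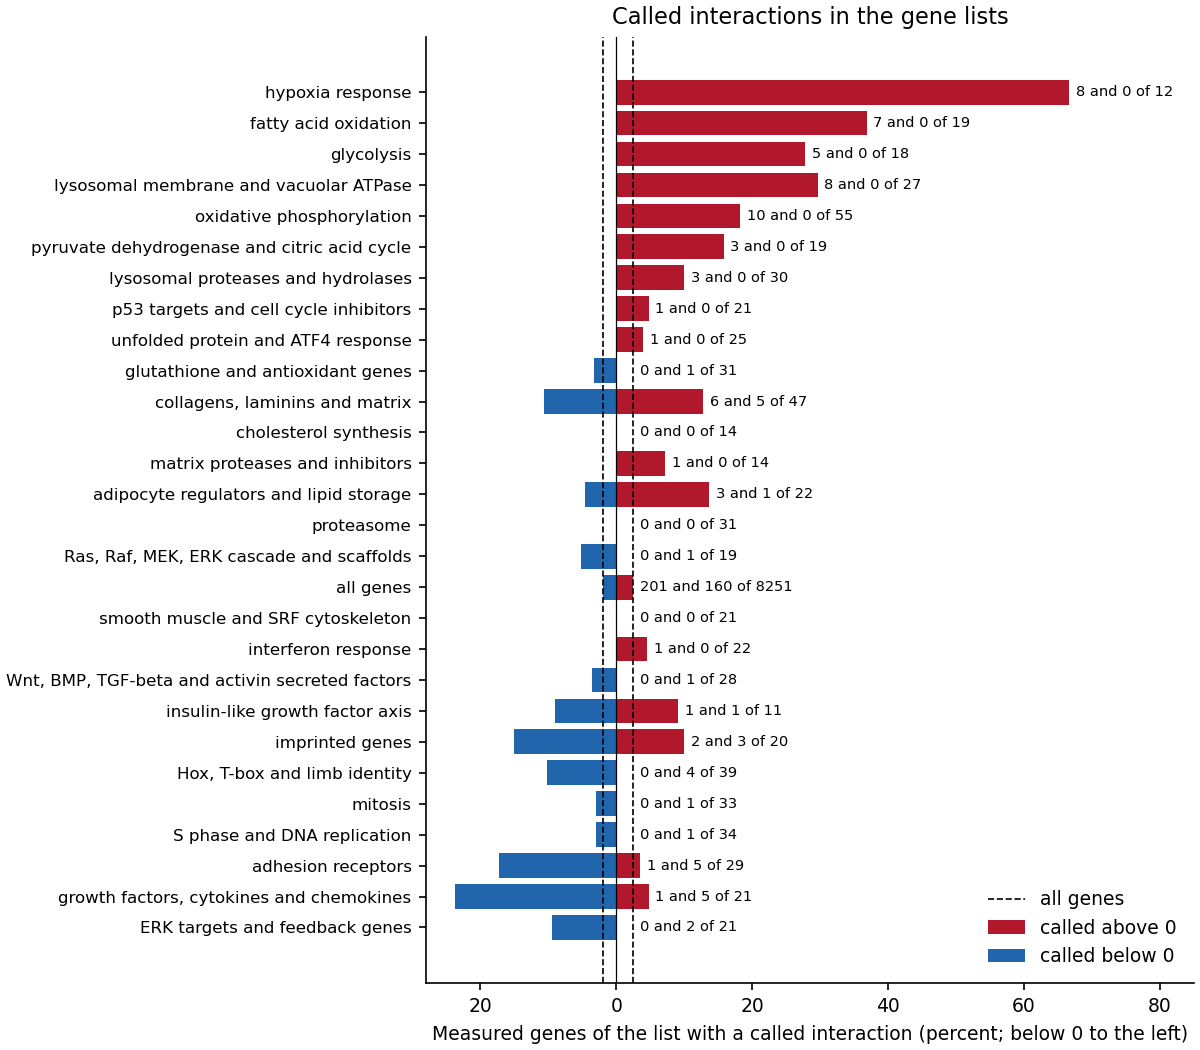
Percent of the measured genes of each pathway or function list (cell type markers are not drawn) with a called interaction (horizontal axis, positive to the right and negative to the left), lists ordered by their median interaction, with the number called positive, called negative and measured beside each bar and dashed lines at the shares of all genes. Hypoxia response (8 of 12) and fatty acid oxidation (7 of 19) reach furthest to the right, and growth factors, cytokines and chemokines (5 of 21) furthest to the left of those drawn.

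Of 19 genes of the Ras to ERK cascade measured, 1 had a called interaction, a share near that of all genes (2.44% positive and 1.94% negative). It was Rasa1, a GTPase-activating protein for Ras, which was at 3155, 1662 and 2998 with KSR1 and 924.3 to 1378 elsewhere (interaction -1.28 ± 0.31, limma adjusted p = 0.0407). At an unadjusted p under 0.05 the cascade had 4 of 19, against 1780 of all 12422 probe sets. The Rasa1 call was lost without 10 of the 12 single arrays, all but replicate 2 of the KSR1 line and replicate 1 of the double line, with limma adjusted p from 0.0545 to 0.102. It was also lost with median centring (limma adjusted p = 0.114), no intensity trend (0.0678) and replicates 2 and 3 alone (0.0968). Of 21 ERK targets and feedback genes 2 were called, both negative, and the median was -0.84. The count was 6 without replicate 1 of the double line, 6 with replicates 2 and 3 alone and 0 with median centring, without replicate 2 of the GFP line, replicate 2 or 3 of the H-RasV12 line, replicate 1 or 2 of the KSR1 line or replicate 2 of the double line, and 1 without replicate 3 of the GFP, KSR1 or double line. S phase and mitosis genes had 1 called interaction each, of 34 and 33, both negative, with medians of -0.48 and -0.43. At an unadjusted p under 0.05 they had 13 and 11, all negative. The S phase call was Pola2, a subunit of DNA polymerase alpha, with an interaction of -1.39 ± 0.33 (limma adjusted p = 0.0361). A second Pola2 probe set had 0.42 ± 0.60 (limma adjusted p = 0.856). The call was lost with median centring (0.0551), with no intensity trend (limma adjusted p = 0.0558) and without replicate 2 or 3 of the GFP line (limma adjusted p = 0.0895 and 0.0942), replicate 2 or 3 of the H-RasV12 line (0.101 and 0.0719), replicate 1 or 2 of the KSR1 line (0.0818 and 0.0816) or replicate 2 or 3 of the double line (0.0888 and 0.0615). The mitosis call was Prc1, a protein of the spindle midzone, with -1.45 ± 0.30 (limma adjusted p = 0.0184). It was lost with median centring (0.0731), with replicates 2 and 3 alone (limma adjusted p = 0.0818) and without replicate 3 of the GFP line (0.0524) or replicate 2 of the H-RasV12, KSR1 or double line (0.0558, 0.0546 and 0.0541). The S phase list had 5 calls with replicates 2 and 3 alone and 2 without replicate 1 of the H-RasV12 or of the double line. The mitosis list had 5 with array weights, 4 with the replicate block and 3 without replicate 1 of the H-RasV12 line or replicate 3 of the double line and 2 without replicate 2 of the GFP line or replicate 1 of the KSR1 line. The proteasome (31 measured), cholesterol synthesis (14) and the SRF cytoskeleton (21) had 0 called by limma. They had 3, 2 and 4 at an unadjusted p under 0.05, which 1780 of all 12422 probe sets passed.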

How the data were processed

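RNA of each line was measured on Affymetrix MG-U74Av2 arrays, 1 array per sample. The deposited values are MAS5 signals, an intensity on a linear scale, per the submitters' processing notes (version not stated here); the 2% trimmed mean was 500.3 on every array, so the authors had scaled them. Gene names came from the platform's annotation, and of 12422 probe sets 10833 had 1 symbol, 396 several and 1193 none. No probe set was filtered. A pseudocount of 23, the rounded 20th percentile of all values, was added before log2, and 4 line means were fitted with limma 3.58.1 (R 4.3.3; lmFit, contrasts.fit and eBayes with an intensity trend, 8 residual degrees of freedom). Tests were two-sided, with Benjamini-Hochberg adjustment over all 12422 probe sets, called under 0.05. For lists, each gene was represented by its brightest probe set over all arrays. That mean includes the line in which a gene is high, so the rule can favour a probe set that responds. For Cd68 the called probe set was the one counted. List counts at an unadjusted p were set against all 12422 probe sets, dim ones included, and not against 1 probe set per gene. Summaries per line are over 3 arrays, and the number of arrays limits the precision.

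Described genes were taken from a set made by rule: the Ksr1 probe sets, the 10 highest and 10 lowest called interactions, up to 4 called genes per line and direction of the sort, and up to 3 called members per list. The comparison, the members and the lists were chosen with earlier results of these data known. The lists were counted and not tested as sets. Alternatives were 2 other pseudocounts, a filter on dim probe sets, quantile normalization, median centring, no trend, estimated array weights, a replicate block, replicates 2 and 3 alone, leaving out each array, an adjusted p under 0.01 and 2 other rules for the sort. For the differences within pairs of lines, and for the count of opposite KSR1 differences, alternatives other than the stricter threshold of the former were added after seeing the data. The procedure was tested on simulated data.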

Additional observations from a re-analysis of the deposited data

Results flagged for a closer look

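The H-RasV12 difference was larger or smaller with KSR1 than without it for 439 probe sets, by the limma test of that difference. The 10 named genes in which it was most positive were Chchd10 (5.13), Lpl (4.99), Adm (4.68), Ccn5 (4.60), Creg1 (4.54), Cd68 (4.50), Ctsk (4.30), Vamp5 (4.27), Slc27a1 (4.08) and Selenbp1 (4.02), all as log2 interactions. The 10 in which it was most negative were Aqp1 (-6.74), Cck (-5.79), Igfbp4 (-5.38), Gap43 (-5.09), Adam8 (-4.88), Crabp1 (-4.84), Ngef (-4.83), Uchl1 (-4.72), Hmga2 (-4.47) and Ptpn22 (-4.33). Of these 20, 18 kept the call in all 21 other fits, in which the threshold stayed at 0.05. A second Ptpn22 probe set, not called, had an interaction of the other sign. Slc27a1 lost it without replicate 1 of the GFP line (limma adjusted p = 0.055), replicates 1, 2 and 3 of the H-RasV12 line (0.0621, 0.0838 and 0.0779), replicates 2 and 3 of the KSR1 line (0.0929 and 0.0772) and replicates 1 and 2 of the double line (0.0612 and 0.0715). Crabp1 lost it with no intensity trend (limma adjusted p = 0.0512) and without replicates 2 and 3 of the GFP line (0.0817 and 0.0825), replicates 1, 2 and 3 of the H-RasV12 line (0.0687, 0.0869 and 0.0729) and replicates 2 and 3 of the double line (0.0839 and 0.0664).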

How the results depend on the processing

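Of the 83 named probe sets with a called interaction, 48 kept the call in every other fit that tested them. The stricter threshold and the 2 other rules for the sort were not part of this count. Cldn1, Vdr and Cox7a1 fell below the filter on dim probe sets and were not tested in that fit. Of all 439 called interactions, 50 fell below it. Over all named probe sets and settings, 1489 values kept their side of the threshold, 293 lost the call and 0 changed sign. The count of 439 became 662 with array weights (313 lower), and 169 at an adjusted p under 0.01 (93 higher, 76 lower; double high 61, double low 29, KSR1 high 30, KSR1 low 18). A required gap of 2 ranges gave 42, 44 and 25 for double low, KSR1 high and KSR1 low. At an adjusted p under 0.01, KSR1 minus GFP had 367, double minus H-RasV12 534, double minus KSR1 500, H-RasV12 minus GFP 3, and the opposite KSR1 differences 8. H-RasV12 minus GFP had 22 with array weights, 40 with replicates 2 and 3 alone, and 5 with the filter, median centring, no trend or the replicate block; the opposite KSR1 differences were 54 with array weights. The causes were not tested beyond the stricter threshold and the fewer arrays or probe sets by construction.

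Leaving out 1 array at a time gave 252 to 568 called interactions (138 to 299 higher, 114 to 269 lower), 88 to 193 double high, 42 to 121 double low, 41 to 73 KSR1 high and 30 to 65 KSR1 low. It gave 429 to 857 for KSR1 minus GFP, 654 to 1052 for double minus H-RasV12, 652 to 1096 for double minus KSR1, 3 to 17 for H-RasV12 minus GFP and 14 to 53 opposite KSR1 differences.

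Deviations of same-numbered arrays correlated above 0.1 in 11 of 18 pairs (0.01 to 0.58, median 0.13). The same held for 4 of 36 pairs with different numbers (-0.44 to 0.22, median -0.10). All same-numbered pairs were thus positive. Since not every one was above 0.1 and the labels tie the numbers to nothing, the main fit did not treat the arrays as paired. With the replicate number as a block, 574 interactions were called, 305 higher and 269 lower, and 431 of the 439 were among them.

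The limits are 3 arrays per line, 1 line per condition, and probe sets whose dim signals make the size of a log2 difference depend on the pseudocount.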

Other observations

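Of the 33 probe sets with opposite KSR1 differences, 2 of the most negative interactions had no single gene symbol. These were 98501_at, with an interaction of -6.53 and KSR1 differences of 4.54 without and -1.99 with H-RasV12, and 101869_s_at, with -5.21, 3.53 and -1.68. They were singled out after their values were seen. Among the epithelial and mesothelial markers, Msln, mesothelin, was at 9.173 to 27.08 in the GFP line, 25.87 to 89.61 in the H-RasV12 line, 1021 to 1924 in the KSR1 line and 296.4 to 569.3 in the double line. Epcam reached at most 31.39 and Krt8 at most 32.29 on any array. Krt19 was at 273.1 to 678.4 in the KSR1 line, 1014 to 1427 in the double line and at most 137.5 in the others. Cldn3 was at 396.7 to 570.6 in the KSR1 line and at most 144.5 elsewhere, and Cdh1 at 411.2 to 994.4 over all arrays. Of the 10 markers, 1 had a called positive and 2 a called negative interaction, against 2.44% and 1.94% of all genes. Leaving out 1 array left 0 to 2 calls among these markers. Their summed signal was 867.9 to 1375 without and 2232 to 4301 with KSR1. The part of other cells was not tested. Of the 7 endothelial and 6 skeletal muscle markers, 0 had an interaction called by limma. An unadjusted p under 0.05 was found for 1 and 0 of them, against 1780 of all 12422 probe sets.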
